A study of Mus musculus with 24 samples.

Results

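The fasting response that remained in mouse liver without Ppara was measured by an indirect comparison of fasted Ppara-null livers with fed wild-type (WT) livers. For each gene, the mean difference between fasted and fed WT livers in the fasting table was added to the mean difference between fasted PparaKO and fasted WT livers in the PparaKO table. The same 4 fasted WT libraries stood in both tables and bridged them. The comparison used 12 of the 24 samples of the series, which were 4 livers each of fasted PparaKO, fasted WT and fed WT mice. All were male C57BL/6 mice. PparaKO mice carried the whole-body Ppara-/- allele and were fasted overnight. WT mice, fasted overnight or fed freely, carried the floxed Bcl6 alleles (Bcl6 fl/fl) without Cre, and the PparaKO label named no floxed Bcl6. A fed Ppara-null group was not analysed here, so a lasting effect of the genotype and a response to fasting in these mice cannot be told apart. Nothing in the labels says whether replicates were separate mice, and the tests therefore cover the spread among these libraries, which may be technical.

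PPARα, the product of Ppara, is a nuclear receptor that binds DNA as a partner of RXR and is activated by fatty acids and related lipids. In fasting, fatty acids released from adipose tissue reach the liver, where PPARα raises genes of fatty acid uptake, mitochondrial and peroxisomal β-oxidation, microsomal ω-hydroxylation and ketone production. The same fast also lowers insulin and raises glucagon and glucocorticoids, which act on gluconeogenesis, amino acid breakdown and fat synthesis through other factors such as CREB, FOXO1, the glucocorticoid receptor, SREBP1c and ChREBP.

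Values were log2 expression levels as deposited, and the difference between 2 groups is given on that log2 scale. PparaKO levels printed below were placed on the scale of the fasting table by the mean gap between the tables of the same fasted WT libraries. This gap lay between -0.17 and 0.17 for the genes from the 5th to the 95th percentile, and between -1.07 and 1.42 among the genes changed more than 2-fold by fasting, with an SD over the 4 shared libraries of at most 0.06. Differences within a table were tested with limma, with Benjamini-Hochberg adjustment over every gene tested in the table, 12044 for fasting and 12065 for Ppara loss, of which 11785 were in both. The sum over both tables, called the bridged difference here, joins separately normalised tables and has a standard error (SE) and no test. The words rose and fell are used of changes that passed a test. Sequencing depth is unknown because the tables hold no read counts, and the effect of the log2 transformation on genes with low counts was not tested. Genes were named by a ranking within each class and list, and the further genes, which were chosen after their values were seen, are Abhd2, Acaca, Acly, Acot4, Acss2, Agpat9, Alas2, Asns, Cd163, Cd36, Cpt2, Cyp4a31, Cyp7a1, Fabp1, Fgf21, G6pc, Gstt2, Hba-a1, Hba-a2, Hmgcs1, Hp, Hpx, Hsd17b10, Insig2, Lss, Marco, Plin4, Plin5, Pnpla2, Saa1, Saa2, Scd1, Slc22a5, Slc25a20, Slc27a1 and Sorbs3. The sum of back-transformed values over all genes, in mega units (M), lay between 12.8 and 13.8 M per library in the fasting table and between 13.6 and 14.2 M in the PparaKO table. In bulk tissue, fewer cells of a type and less RNA per cell cannot be told apart. Hepatocyte markers such as Alb and Apob were high in every library, with a summed log2 level of 20.36 to 20.62 in PparaKO livers, 20.51 to 20.67 in fasted WT livers of the same table and 20.15 to 20.47 in fed WT livers.

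The targeted gene was examined before the rest. Ppara (chr15:85734983-85802819, mm10, GENCODE vM21) had log2 levels of 12.20, 12.36, 12.19 and 12.33 in PparaKO livers, 13.34, 13.39, 13.38 and 13.14 in fasted WT livers and 12.78, 12.88, 13.00 and 12.75 in fed WT livers. It rose with fasting in WT livers by 0.46 (SE 0.08, adjusted p = 0.00203) and fell without Ppara by 1.04 (SE 0.08, adjusted p = 3.82e-06). The PparaKO libraries lay below all WT libraries, although RNA counted over the whole gene remained, and a level summed over exons does not show which part of the gene was deleted. Ppard and Pparg, which encode the other PPAR receptors, had bridged differences of 0.27 (SE 0.08) and 0.03 (SE 0.10). Neither passed the test in fasting (adjusted p = 0.258 and 0.463) or in Ppara loss (adjusted p = 0.0917 and 0.209). Bcl6, a transcriptional repressor, had a bridged difference of -0.89 (SE 0.52), and its level varied widely among the WT libraries.

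Most of the large fasting changes persisted or grew without Ppara, and the 24 that were lost were mainly rises, among them Cyp4a14 and Ehhadh of fatty acid oxidation. Fasting raised 74 genes and lowered 64 genes more than 2-fold in WT livers at an adjusted p under 0.05, which was 0.614% and 0.531% of the genes tested. Of these 138 genes, 134 were also tested in the PparaKO table. Among the 74 raised genes, 31 persisted, 14 were reduced, 17 were lost and 12 grew. Among the 60 lowered genes, 32 persisted, 10 were reduced, 7 were lost, 10 grew and 1, Lss of cholesterol synthesis, was unresolved. A change was called grown when the Ppara-loss test passed in the same direction as fasting, and opposed when it passed in the other direction. Opposed changes were divided into lost, with less than 25% of the WT difference left in the bridged difference, and reduced, with at least 25% left. Persisted changes had no call in the Ppara-loss test and at least 50% left. For 47 of the 63 persisted genes the 95% interval of the Ppara-loss difference also lay short of a loss of 50% of the fasting difference.

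Opposed genes made up 41.9% of the raised genes and 28.3% of the lowered genes. Across all tested genes, Ppara loss lowered 13.2% and raised 11.7% at an adjusted p under 0.05, and with a fold over 2 it lowered 0.895% and raised 0.663%. Both comparisons contain the same fasted WT libraries with opposite sign, so chance deviations of these libraries count towards opposed changes. With the adjusted p alone, fasting raised 1426 genes (11.8%) and lowered 1317 (10.9%). Of the raised genes tested in both tables, 464 of 1415 were opposed, 136 moved further and 815 had no call in Ppara loss. Of the lowered genes, 286 of 1278 were opposed, 148 moved further and 844 had no call. This split of fasting calls depended on scaling: 52.0% of calls were rises on the deposited scale and 19.6% after the libraries were set to equal totals. The bridged difference was over 2-fold higher for 119 of 11785 genes (1.01%) and over 2-fold lower for 144 (1.22%). It remained over 2-fold in the direction of fasting for 35 of the 74 raised and 39 of the 60 lowered genes. PparaKO and fed WT libraries did not overlap for 4222 genes (35.8%), on the bridged scale.

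**Figure D1:**
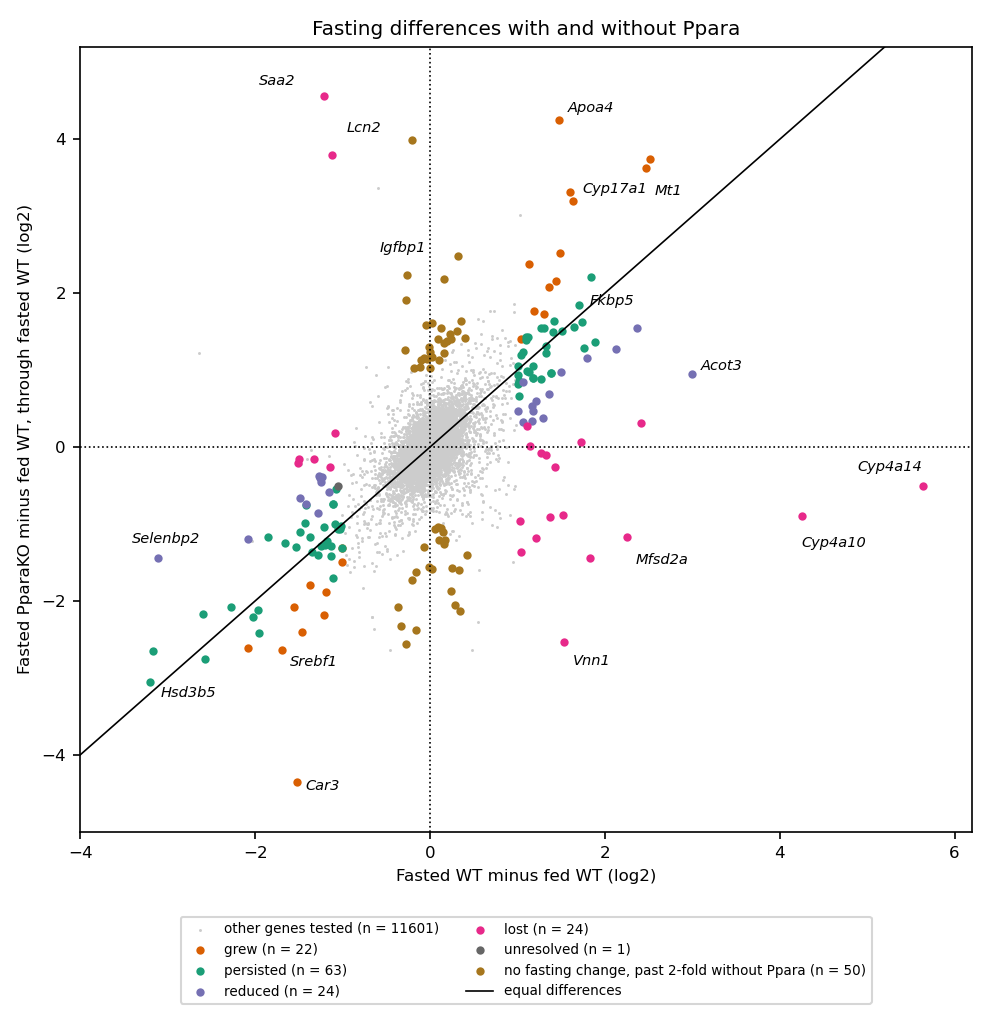
Each point is a gene, with the log2 difference between fasted WT and fed WT livers on the x axis and the bridged log2 difference between fasted PparaKO and fed WT livers on the y axis. Persisted genes lie near the line of equal differences, lost genes such as Cyp4a14 (5.64 and -0.51) lie near or beyond 0, and grown genes such as Apoa4 (1.47 and 4.25) lie outside the line.

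Rises of fatty acid ω-hydroxylation were lost. Cyp4a14 (chr4:115486200-115496142), a microsomal P450 that hydroxylates the end of fatty acids, had log2 levels of 9.28, 9.57, 9.52 and 9.18 in PparaKO livers, 15.90, 15.29, 15.55 and 15.38 in fasted WT livers and 12.06, 9.23, 9.79 and 8.49 in fed WT livers. All PparaKO libraries lay far below the fasted WT libraries and within the range of the fed WT libraries, in which replicate 1 was highest. Cyp4a14 rose with fasting by 5.64 (SE 0.60, adjusted p = 0.000211), fell without Ppara by 6.14 (SE 0.13, adjusted p = 3.27e-10) and had a bridged difference of -0.51 (SE 0.78). Its neighbour Cyp4a10 behaved alike, with -0.90 in PparaKO against fed WT and 4.25 in fasted WT against fed WT. Cyp4a31 and Cyp4a32 were also lost, with bridged differences of 0.32 and -1.19. Cyp4a genes share sequence and the authors kept only uniquely aligned reads, so reads that fit several copies were left out. All 6 of the 11 tested ω-hydroxylation genes that rose with fasting fell without Ppara, and the median difference from fed WT was -0.89 in PparaKO and 0.36 in fasted WT livers, against -0.00 in both for all genes tested.

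Several lost genes lay below the fed level. Vnn1, which encodes the pantetheinase vanin-1 and is a known PPARα target, had log2 levels of 6.48, 6.54, 6.42 and 6.28 in PparaKO livers, 10.80, 10.55, 10.47 and 10.16 in fasted WT livers and 9.57, 9.10, 8.93 and 8.24 in fed WT livers. Every PparaKO library lay below every fed WT library, and the bridged difference was -2.53 (SE 0.28), although Vnn1 rose with fasting by 1.54 (SE 0.24, adjusted p = 0.00148) in WT livers. Retsat, a retinol saturase, had -1.44 in PparaKO against fed WT and 1.82 in fasted WT against fed WT, and Mfsd2a, a transporter of lysophospholipids, had -1.17 in PparaKO against fed WT and 2.25 in fasted WT against fed WT. Ehhadh (chr16:21761287-21787807), the bifunctional enzyme of peroxisomal β-oxidation, had log2 levels of 10.97, 11.35, 10.95 and 11.09 in PparaKO livers, 13.86, 13.15, 13.82 and 13.18 in fasted WT livers and 12.15, 11.70, 12.17 and 11.89 in fed WT livers. The 3 groups did not overlap, with PparaKO livers lowest, and the Ppara-loss difference was -2.41 (SE 0.17, adjusted p = 2.47e-06). Of the 17 lost rises, 8 had a bridged difference past the fed level by more than 25% of the fasting rise. The other lost rises included Slc27a1, a fatty acid transporter (0.07), Hsd17b10, a mitochondrial dehydrogenase (0.01), and Agpat9, an acyltransferase of triglyceride synthesis (-0.10). Gstt2 was the lost gene nearest to the limit, with 24.7% of its fasting difference left, and G0s2, an inhibitor of the lipase ATGL, was the nearest reduced gene with 28.9%.

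**Figure D2:**
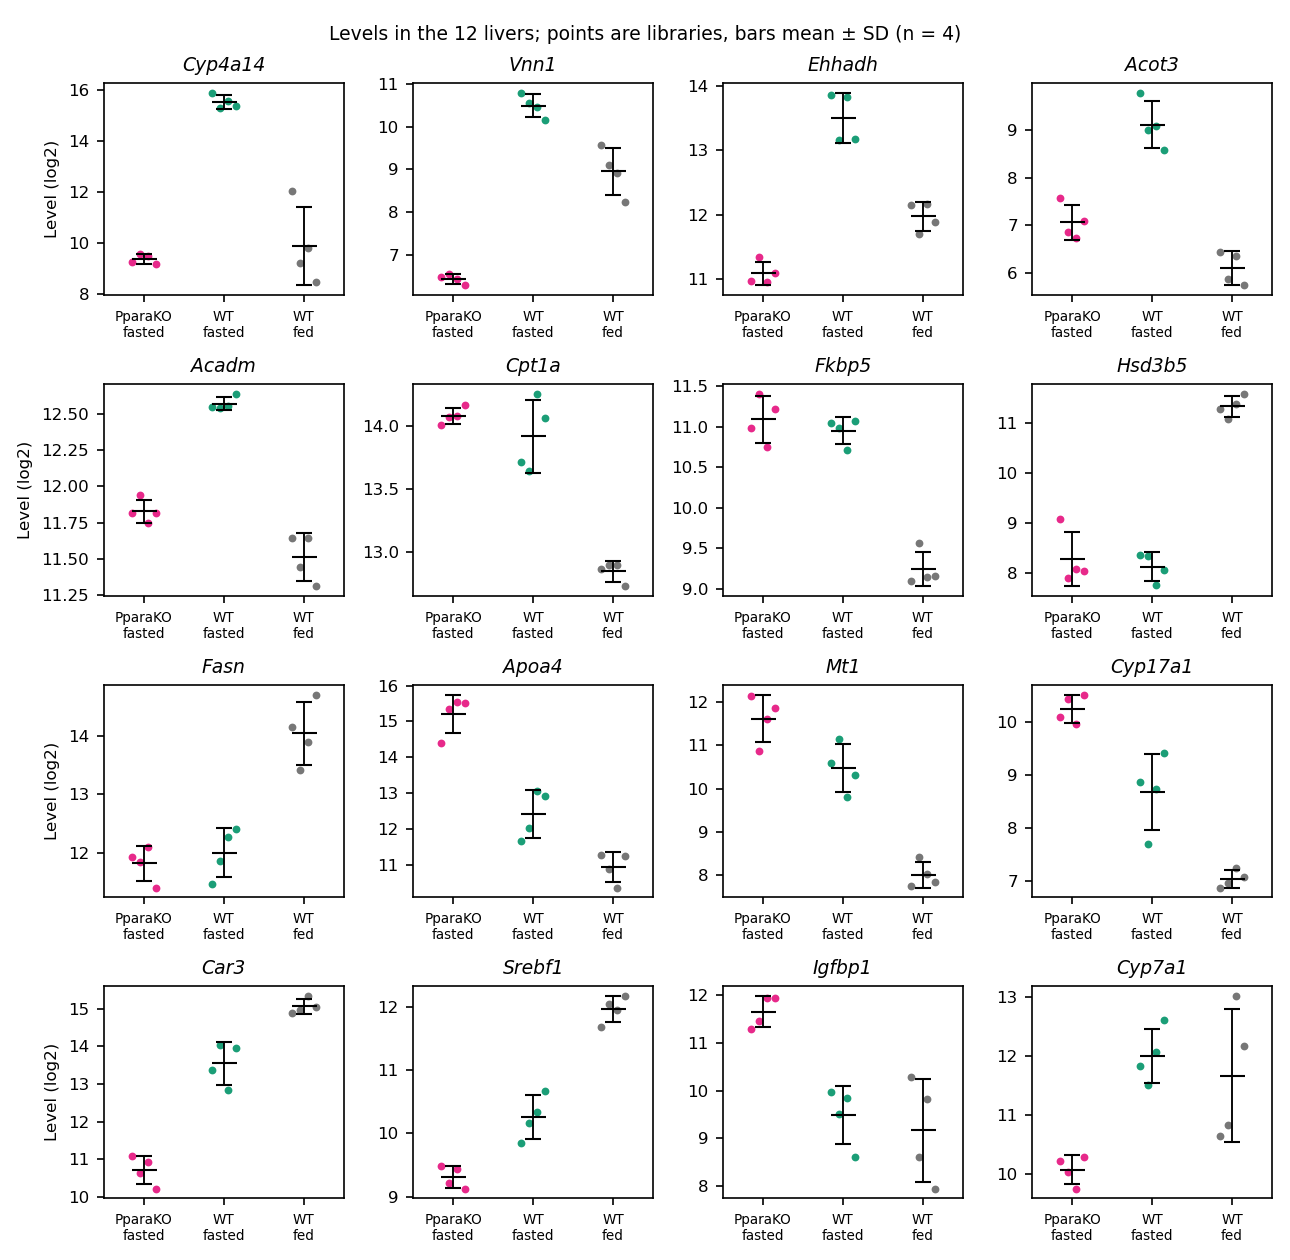
Log2 levels of 16 genes in the 4 fasted PparaKO, 4 fasted WT and 4 fed WT livers, with PparaKO values placed on the scale of the fasting table. Points are libraries and bars show the mean and SD. Cyp4a14, Vnn1 and Ehhadh lay low in PparaKO livers, Cpt1a, Fkbp5, Hsd3b5 and Fasn lay near fasted WT livers, and Apoa4, Mt1, Cyp17a1, Car3 and Srebf1 lay mostly beyond them.

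Mitochondrial β-oxidation showed the same pattern across nearly the whole list. Fasting raised 22 of its 25 genes and Ppara loss lowered 21 of these 22, so that 16 of the raised genes lay below the fed level in the bridged comparison. The median difference from fed WT was -0.43 in PparaKO and 0.60 in fasted WT livers. Eci1, an enoyl-CoA isomerase, had -0.93 in PparaKO against fed WT and 0.60 in fasted WT against fed WT. Cpt2, which releases acyl groups inside the mitochondrion, had -0.85 in PparaKO against fed WT and 0.59 in fasted WT against fed WT, and Slc25a20, which carries acylcarnitine across the inner membrane, had -0.82 in PparaKO against fed WT and 0.74 in fasted WT against fed WT. Acadm (chr3:153922357-153944632), the medium-chain acyl-CoA dehydrogenase, was reduced and not lost. It no longer met the 2-fold fasting call under equal totals, under quantile normalisation or without fed WT replicate 4. Its log2 levels were 11.82, 11.94, 11.75 and 11.81 in PparaKO livers, 12.55, 12.54, 12.56 and 12.64 in fasted WT livers and 11.65, 11.45, 11.64 and 11.31 in fed WT livers. PparaKO livers lay between the other groups, with a Ppara-loss difference of -0.74 (SE 0.06, adjusted p = 1.05e-05) and a bridged difference of 0.32 (SE 0.09). Crat, the carnitine acetyltransferase, and Slc22a5, the carnitine transporter, were also reduced, with bridged differences of 0.68 and 0.53.

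Cpt1a, which forms acylcarnitine and admits long-chain fatty acids to mitochondria, was the raised gene of this list that kept its rise. Its gene (chr19:3322334-3385733) had log2 levels of 14.01, 14.07, 14.08 and 14.16 in PparaKO livers, 13.71, 13.64, 14.25 and 14.06 in fasted WT livers and 12.87, 12.90, 12.90 and 12.73 in fed WT livers. The PparaKO libraries lay within the range of the fasted WT libraries and above all fed WT libraries. Cpt1a rose with fasting by 1.07 (SE 0.12, adjusted p = 0.000325), its Ppara-loss difference was 0.16 (SE 0.12, adjusted p = 0.367) with a 95% interval of -0.11 to 0.43, and the bridged difference was 1.23 (SE 0.05). Scaling to equal totals or quantile normalisation gave fasting differences of 0.98 and 0.94, just under 2-fold, and both passed the test.

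Peroxisomal oxidation and ketone production lost most of their rises. In the peroxisomal list fasting raised 17 of 24 genes, and Ppara loss lowered 15 of these, with a median difference from fed WT of -0.44 in PparaKO and 0.46 in fasted WT livers. Acaa1b, a peroxisomal thiolase, had -2.27 in PparaKO against fed WT and 0.55 in fasted WT against fed WT, and Abcd2, an importer of very long-chain fatty acids, had -1.36 in PparaKO against fed WT and 1.04 in fasted WT against fed WT. Acnat2, an acyl-CoA:amino acid N-acyltransferase, was the exception that rose further, with 2.16 in PparaKO against fed WT and 1.44 in fasted WT against fed WT. Nudt7, a peroxisomal coenzyme A hydrolase, fell with fasting by 1.97 and its bridged difference was -2.12. In the ketone list all 7 of 10 genes that rose with fasting fell without Ppara. Fgf21, a liver hormone of fasting, had low log2 levels of 4.27, 4.25, 4.12 and 4.16 in PparaKO livers, 5.25, 4.84, 5.58 and 5.06 in fasted WT livers and 4.68, 4.40, 4.42 and 4.92 in fed WT livers. PparaKO livers lay below all WT livers. Fgf21 fell without Ppara by 0.98 (SE 0.14, adjusted p = 0.000547).

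Acot1, Acot2, Acot3 and Acot4, which encode acyl-CoA thioesterases, were reduced and not lost. Acot3, a peroxisomal thioesterase that frees fatty acids from coenzyme A, had log2 levels of 7.57, 6.86, 6.73 and 7.09 in PparaKO livers, 9.78, 8.99, 9.08 and 8.58 in fasted WT livers and 6.45, 5.88, 6.36 and 5.75 in fed WT livers. PparaKO livers lay between both WT groups without overlap. Acot3 rose 7.98-fold with fasting (adjusted p = 4.99e-05), its Ppara-loss difference was -2.04 (SE 0.23, adjusted p = 9.36e-05) and the bridged difference was 0.95 (SE 0.25). Acot1, Acot2 and Acot4, which lie beside Acot3 and share sequence with it, had bridged differences of 1.28, 0.59 and 1.15, against 2.13, 1.21 and 1.79 in fasted WT livers. Slc16a5, a monocarboxylate transporter family member, had 1.55 in PparaKO against fed WT and 2.36 in fasted WT against fed WT. The Ppara-loss call of Slc16a5 was lost without fasted WT replicate 3 or 4 or PparaKO replicate 1 or 3. Nr1i3, which encodes the xenobiotic receptor CAR, fell without Ppara by 0.52 and kept a bridged difference of 0.97.

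**Figure D3:**
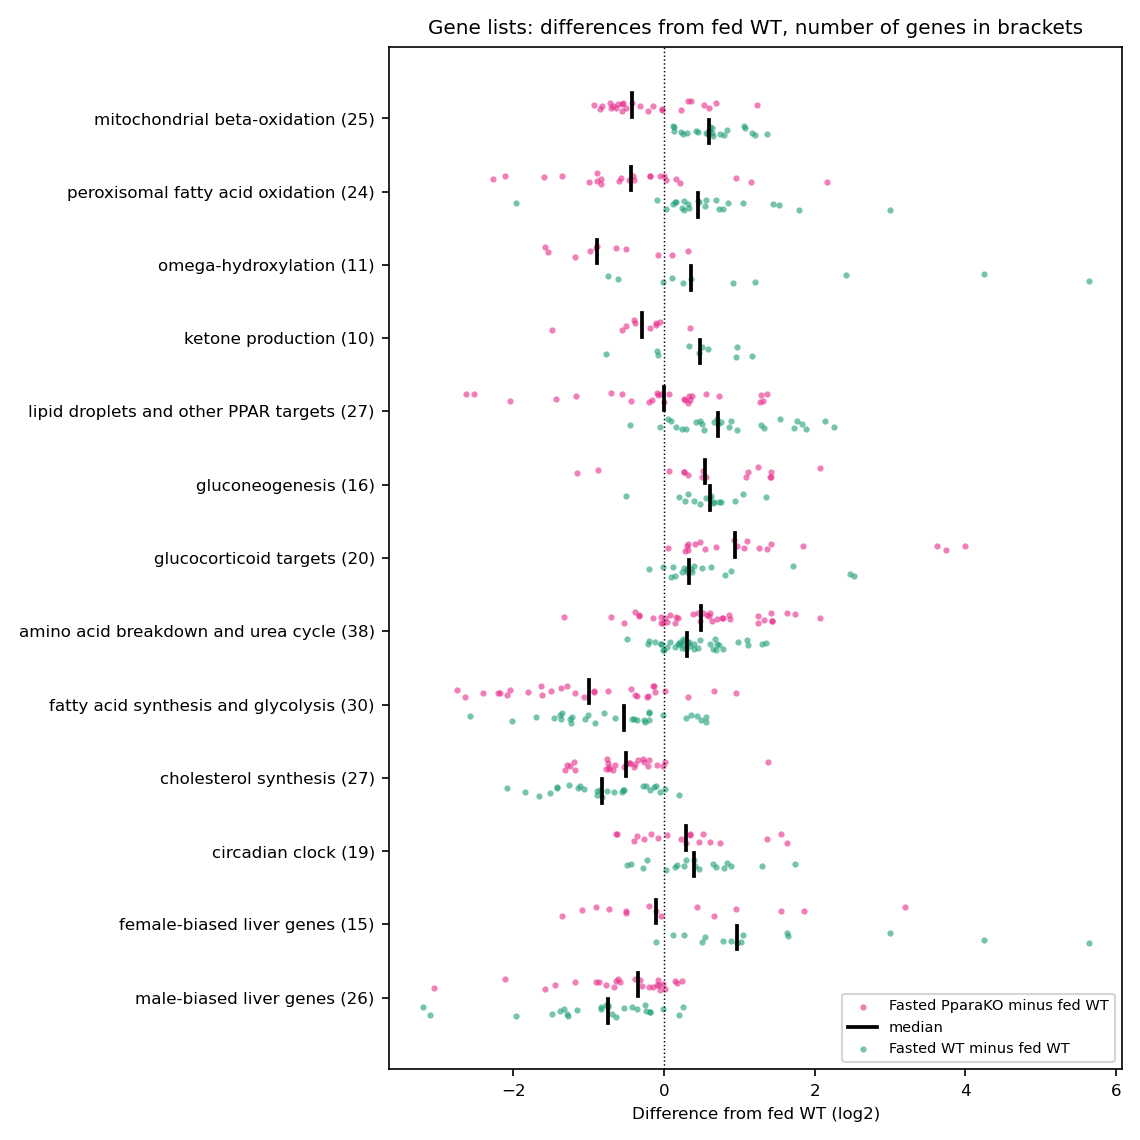
Differences from fed WT on the log2 scale for the genes of 13 lists, with fasted PparaKO livers above and fasted WT livers below in each list. Points are genes and black bars are medians. The medians of the mitochondrial and peroxisomal oxidation lists were -0.43 and -0.44 in PparaKO livers against 0.60 and 0.46 in fasted WT livers, while those of gluconeogenesis were 0.54 and 0.61.

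Genes of lipid droplets and other PPAR targets were mixed. Fasting raised 19 of 27 tested genes, and Ppara loss lowered 15 of them. The 4 without a call were Plin4 and Cidec, which coat lipid droplets, Abhd2, a lipase, and Pnpla2, which encodes ATGL. Their bridged differences were 1.36, 1.32, 1.28 and 0.73. Fasting differences were 1.89 for Plin4, 1.33 for Cidec and 1.76 for Abhd2, of which 72.2%, 98.8% and 72.8% were left. Abhd2 had a Ppara-loss difference of -0.48 (adjusted p = 0.0625) and became reduced without fasted WT replicate 2 or PparaKO replicate 4. Cidec left its class when a mean log2 level of at least 6 was required. By qPCR, the paper lists Abhd2 among genes with defective fasting expression in Ppara-/- mice. Plin5, another droplet coat protein, and Cd36, the fatty acid translocase, rose with fasting by 0.96 and 0.89 and lay at -0.55 and -0.20 in the bridged comparison. Fabp1, the abundant liver fatty acid binding protein, fell with fasting by 0.45 and fell further without Ppara, to a bridged difference of -2.63. The list median was 0.00 in PparaKO and 0.72 in fasted WT livers, and under equal totals the first of these was -0.08.

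Gluconeogenic genes raised by fasting stayed above the fed level without Ppara, and some rose further. Fasting raised 12 of 16 genes. Without Ppara, 4 of these rose further, 3 fell and 5 had no call, and 0 of the 12 lay below the fed level in the bridged comparison. The median difference from fed WT was 0.54 in PparaKO and 0.61 in fasted WT livers. Pck1, which makes phosphoenolpyruvate and commits carbon to glucose, had log2 levels of 16.18, 16.15, 16.06 and 16.13 in PparaKO livers, 15.80, 15.86, 15.89 and 15.51 in fasted WT livers and 14.98, 14.82, 14.91 and 14.18 in fed WT livers. PparaKO livers lay above all WT libraries. Pck1 rose with fasting by 1.05 (SE 0.17, adjusted p = 0.00178), its Ppara-loss difference was 0.36 (SE 0.11, adjusted p = 0.0373) and its bridged difference was 1.41 (SE 0.19). The Ppara-loss call for Pck1 was not stable. It was lost when any of fasted WT replicates 1, 2 or 4 or PparaKO replicates 2, 3 or 4 was left out (adjusted p up to 0.113), and after quantile normalisation the difference was -0.03 (adjusted p = 0.878). Got1, the cytosolic aspartate aminotransferase, had 2.07 in PparaKO against fed WT and 1.36 in fasted WT against fed WT. Its Ppara-loss call (adjusted p = 0.0370) was lost without fasted WT replicate 1 or 2 or PparaKO replicate 2, 3 or 4. Ppargc1a, a coactivator of fasting genes, had 1.42 in PparaKO against fed WT and 0.76 in fasted WT against fed WT. Pcx, pyruvate carboxylase, fell without Ppara and had 0.27 in PparaKO against fed WT and 0.66 in fasted WT against fed WT. G6pc, which releases free glucose, did not pass in fasting and fell without Ppara, with differences of -0.50 and -0.65. Of 38 genes of amino acid breakdown and the urea cycle, fasting raised 22. Without Ppara, 8 of these rose further, 3 fell and 11 had no call, and the list median was 0.50 in PparaKO and 0.30 in fasted WT livers. Asl, argininosuccinate lyase, had 1.73 in PparaKO against fed WT and 1.30 in fasted WT against fed WT. The Ppara-loss call of Asl (adjusted p = 0.0388) was lost without fasted WT replicate 1 or 2 or PparaKO replicate 2, 3 or 4. It was also lost after quantile normalisation and with no filter on low values. Sdsl, a serine dehydratase-like enzyme, had 1.63 in PparaKO against fed WT and 0.60 in fasted WT against fed WT.

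**Figure D4:**
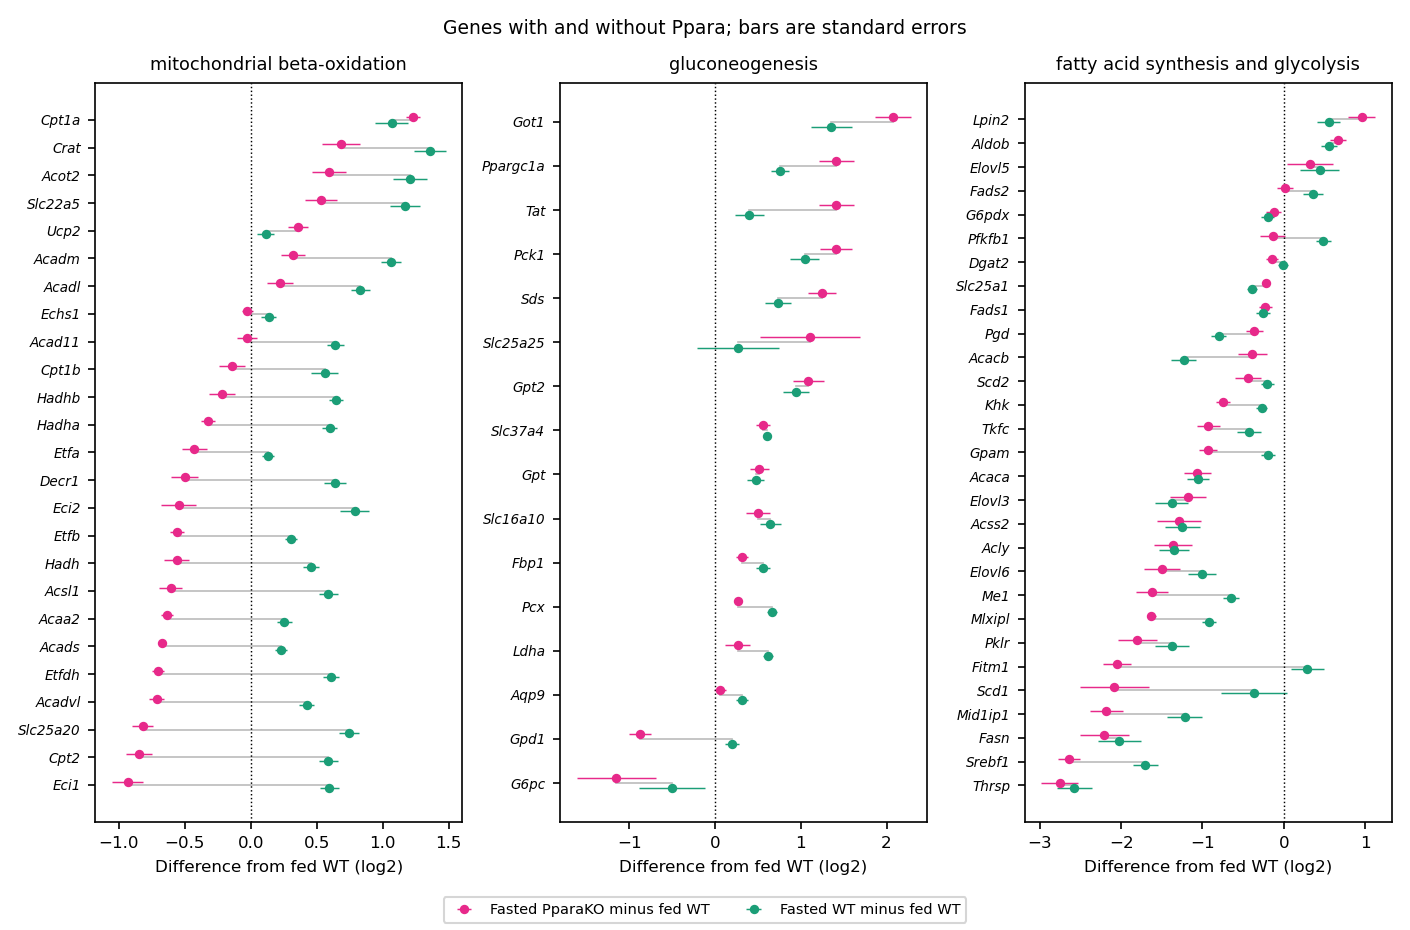
Differences from fed WT on the log2 scale for genes of 3 lists, in fasted PparaKO and fasted WT livers, with standard errors as bars. In β-oxidation, 16 of the 22 raised genes lay below 0 in PparaKO livers and Cpt1a did not. Gluconeogenic genes raised by fasting stayed above 0, and lipogenic genes lowered by fasting stayed below 0. Counts are of the full lists, of which some genes may not be drawn.

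The rises that grew were led by an apolipoprotein, metallothioneins and a steroid hydroxylase. Apoa4 (chr9:46240696-46243459), an apolipoprotein of lipid export, had log2 levels of 14.41, 15.35, 15.55 and 15.51 in PparaKO livers, 11.68, 12.04, 13.07 and 12.92 in fasted WT livers and 11.27, 10.91, 10.38 and 11.25 in fed WT livers. PparaKO livers lay above all WT libraries. Apoa4 rose with fasting by 1.47 (SE 0.31, adjusted p = 0.00702) and rose further without Ppara by 2.78 (SE 0.31, adjusted p = 8.48e-05), which gave a bridged difference of 4.25 (SE 0.34), or 19.0-fold. Cyp17a1, the steroid 17α-hydroxylase, had log2 levels of 10.08, 10.43, 9.96 and 10.50 in PparaKO livers, 8.87, 7.70, 8.74 and 9.42 in fasted WT livers and 6.88, 6.96, 7.25 and 7.08 in fed WT livers. The groups did not overlap, and the differences were 1.64 (SE 0.29, adjusted p = 0.00284) for fasting, 1.56 (SE 0.27, adjusted p = 0.00171) for Ppara loss and 3.20 (SE 0.16) when bridged. Mt1, a metal-binding metallothionein that also responds to glucocorticoids, had log2 levels of 12.15, 10.87, 11.60 and 11.86 in PparaKO livers, 10.60, 11.16, 9.81 and 10.31 in fasted WT livers and 7.73, 8.41, 8.02 and 7.84 in fed WT livers. PparaKO replicate 2 lay within the range of the fasted WT libraries, and the Ppara-loss difference was 1.15 (SE 0.28, adjusted p = 0.0125). Mt2, which lies beside Mt1, had 3.74 in PparaKO against fed WT and 2.52 in fasted WT against fed WT. The Ppara-loss call of Mt2 (adjusted p = 0.0362) was lost without fasted WT replicate 1, 3 or 4 or PparaKO replicate 1, 3 or 4. Slco1a4, a bile acid and drug transporter, had 2.52 in PparaKO against fed WT and 1.49 in fasted WT against fed WT. In all alternatives tried, 7 of the 12 grown rises stayed in their class, namely Apoa4, Mt1, Cyp17a1, Slco1a4, Acnat2, Sorbs3 and E030018B13Rik. The grown rises numbered 8 without PparaKO replicate 3 or 4, against 12 with all libraries.

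A glucocorticoid receptor motif was found among the promoters of the grown rises, and these windows are shown because the members moved together, and were chosen after the matches were seen. The windows searched ran from 250 bases before to 50 bases after the RefSeq start on GRCm38.p6 (mm10). Of the 12 grown rises, 9 had a window. The motif, GNACA and TGTNC separated by 3 bases of any kind, was searched on both strands, reads the same on each and was in 2 of these 9 windows, against 36 of 9424 tested genes (0.382%) and 0.475% of all 32851 windows. The match began at position -94 relative to the start of Mt1 and at -101 relative to that of Acnat2. This motif was in 0 of 26 persisted rises with a window. A window of Hmgcs1, a persisted fall of cholesterol synthesis, is shown beside them and held the sterol regulatory motif TCACNCCAC at position -137. That motif was in 1.49% of tested genes and in 1 of 24 persisted falls with a window. It was also in 1 of 9 lost rises (Ehhadh) and 1 of 26 persisted rises (Cyp2a5). In a class described below, of genes higher without Ppara and without a fasting call, it was in 1 of 23 (Saa3). The glucocorticoid receptor motif was also in 1 of 23 genes of that class (1700024P16Rik). The direct repeat of AGGNCA with 1 base between the copies, which PPARα and RXR bind, was in 0 of the 9 lost rises with a window, and in 0.361% of tested genes. At so low a share, 0 of 9 does not show that lost rises lack the repeat, and bases outside the windows were not searched. Another 3 motifs were searched, making 6 in all. They were the cAMP element (TGAC followed by GTCA, in 1.79% of all windows), the FOXO element (GTAAACA, in 3.65%) and the carbohydrate element (CANGTG repeated after 5 bases, in 0.0852%). All 3 were in 0 of the 9 windows of grown rises. A match is a description of letters and was not tested as a site. Capitals mark the match in the 250 bases before each start.
Mt1 promoter, chr8:94178839-94179088, plus strand: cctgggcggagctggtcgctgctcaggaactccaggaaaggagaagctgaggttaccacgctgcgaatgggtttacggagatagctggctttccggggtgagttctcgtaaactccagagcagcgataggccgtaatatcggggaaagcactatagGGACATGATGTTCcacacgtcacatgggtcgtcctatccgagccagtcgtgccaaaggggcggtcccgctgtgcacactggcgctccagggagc
Acnat2 promoter, chr4:49408152-49408401, minus strand: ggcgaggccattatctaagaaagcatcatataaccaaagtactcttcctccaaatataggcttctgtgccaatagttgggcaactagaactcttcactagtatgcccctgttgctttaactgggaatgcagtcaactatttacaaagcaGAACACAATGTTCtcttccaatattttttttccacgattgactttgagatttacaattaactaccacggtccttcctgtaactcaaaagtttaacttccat
Hmgcs1 promoter, chr13:119690101-119690350, plus strand: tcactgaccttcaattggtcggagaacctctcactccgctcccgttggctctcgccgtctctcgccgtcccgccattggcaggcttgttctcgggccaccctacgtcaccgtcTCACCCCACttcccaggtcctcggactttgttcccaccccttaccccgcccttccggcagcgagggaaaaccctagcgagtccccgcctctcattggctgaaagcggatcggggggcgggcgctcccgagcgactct

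No glucocorticoid target raised by fasting fell without Ppara. Of 20 tested genes in the list, fasting raised 7. Without Ppara, 3 of these rose further and 4 had no call. The list median was 0.95 in PparaKO and 0.33 in fasted WT livers. Fkbp5 (chr17:28399094-28517527), a chaperone of the glucocorticoid receptor and one of its common readouts, had log2 levels of 10.98, 11.40, 10.75 and 11.22 in PparaKO livers, 11.04, 10.98, 10.71 and 11.07 in fasted WT livers and 9.10, 9.56, 9.15 and 9.16 in fed WT livers. PparaKO and fasted WT livers overlapped, and both lay above fed WT livers. Fkbp5 rose with fasting by 1.71 (SE 0.11, adjusted p = 2.43e-05), the Ppara-loss difference was 0.14 (SE 0.13, adjusted p = 0.474) with a 95% interval of -0.15 to 0.42, and the bridged difference was 1.84 (SE 0.18). Per1, a clock gene that also responds to glucocorticoids, had 1.37 in PparaKO against fed WT and 0.89 in fasted WT against fed WT, and Cebpd, a transcription factor, had 0.97 in PparaKO against fed WT and 0.62 in fasted WT against fed WT. Mat1a, which makes S-adenosylmethionine, led the persisted rises with 2.21 in PparaKO against fed WT and 1.84 in fasted WT against fed WT. In the clock list 11 of 19 genes rose with fasting, and 8 of these had no call in Ppara loss. Usp2 and Ciart, which follow the clock, had bridged differences of 1.63 and 1.55 against 1.74 and 1.30 in fasted WT livers.

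Most genes of fat synthesis that fell with fasting stayed low or fell further without Ppara. In the list of fat synthesis and glycolysis, fasting lowered 17 of 30 genes. Without Ppara, 8 of these fell further, 6 had no call and 3 rose, and the list median was -0.998 in PparaKO and -0.54 in fasted WT livers. Fasn (chr11:120805846-120824547), the fatty acid synthase, had log2 levels of 11.94, 11.85, 12.11 and 11.42 in PparaKO livers, 11.49, 11.87, 12.28 and 12.42 in fasted WT livers and 14.15, 13.42, 13.89 and 14.69 in fed WT livers. PparaKO and fasted WT livers overlapped below all fed WT livers. Fasn fell with fasting by 2.02 (SE 0.26, adjusted p = 0.000583), the Ppara-loss difference was -0.18 (SE 0.20, adjusted p = 0.528) with a 95% interval of -0.62 to 0.25, and the bridged difference was -2.21 (SE 0.30). Acly, Acaca and Acss2, which supply its substrates, had bridged differences of -1.36, -1.06 and -1.29. Srebf1, which encodes the insulin-responsive factor SREBP1c, had log2 levels of 9.49, 9.21, 9.43 and 9.13 in PparaKO livers, 9.85, 10.16, 10.34 and 10.68 in fasted WT livers and 11.68, 12.04, 11.95 and 12.17 in fed WT livers. The groups did not overlap and PparaKO livers were lowest, with a Ppara-loss difference of -0.94 (SE 0.15, adjusted p = 0.00119) and a bridged difference of -2.64 (SE 0.13). Pklr, the liver pyruvate kinase, and Mid1ip1, a partner of acetyl-CoA carboxylase, had bridged differences of -1.80 and -2.18. Acacb, the acetyl-CoA carboxylase that makes malonyl-CoA at mitochondria, went the other way, with -0.39 in PparaKO against fed WT and -1.23 in fasted WT against fed WT.

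Car3 had the largest bridged difference among the falls that grew. Car3 (chr3:14863512-14872523), carbonic anhydrase 3, had log2 levels of 11.09, 10.63, 10.92 and 10.21 in PparaKO livers, 13.36, 14.04, 12.83 and 13.95 in fasted WT livers and 14.89, 14.98, 15.34 and 15.06 in fed WT livers. No groups overlapped. Car3 fell with fasting by 1.52 (SE 0.23, adjusted p = 0.00148) and fell further without Ppara by 2.83 (SE 0.26, adjusted p = 2.61e-05), which gave a bridged difference of -4.36 (SE 0.22). Cyp26a1, which degrades retinoic acid, had -2.61 in PparaKO against fed WT and -2.08 in fasted WT against fed WT. Its gap between the tables was 1.42, larger than its Ppara-loss difference of -0.53. It left the class when a mean log2 level of at least 6 was required. The class of grown falls was small and sensitive: it held 10 genes with all libraries and 5 without fasted WT replicate 2, and 4 of the 10 stayed in it under all alternatives, namely Car3, Srebf1, Mid1ip1 and Pklr.

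Cholesterol synthesis genes fell with fasting, and most of the lowered members had no call in Ppara loss. Fasting lowered 18 of 27 genes. Without Ppara 4 of these rose, 2 fell further and 12 had no call, and the list median was -0.50 in PparaKO and -0.82 in fasted WT livers. Fdps, farnesyl diphosphate synthase, had -1.19 in PparaKO against fed WT and -2.09 in fasted WT against fed WT. Sqle, squalene epoxidase, had -0.21 in PparaKO against fed WT and -1.51 in fasted WT against fed WT. The Ppara-loss call of Fdps (adjusted p = 0.0464) was lost without fasted WT replicate 1 or 2 or PparaKO replicate 1, 2 or 3 (adjusted p up to 0.121). That of Sqle (adjusted p = 0.0239) was lost without fasted WT replicate 2 or PparaKO replicate 1, 2 or 3 (adjusted p up to 0.0676). Hmgcs1, the cytosolic enzyme before HMG-CoA reductase, had log2 levels of 12.16, 12.08, 12.18 and 11.04 in PparaKO livers, 10.88, 11.13, 11.89 and 11.90 in fasted WT livers and 13.17, 12.50, 13.37 and 13.43 in fed WT livers. PparaKO replicate 4 lay below the other PparaKO libraries and within the range of the fasted WT libraries, and the bridged difference was -1.25 (SE 0.35). Insig2, which restrains SREBP processing, did not pass in fasting and rose without Ppara, with differences of 0.20 and 1.19.

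Male-biased genes fell with fasting, and most of the lowered members rose without Ppara. Of 26 male-biased genes, fasting lowered 15, and Ppara loss raised 11 of these. Hsd3b5 (chr3:98618634-98630252), a male-specific steroid dehydrogenase, persisted. Its log2 levels were 9.09, 7.90, 8.08 and 8.04 in PparaKO livers, 8.35, 8.35, 7.75 and 8.06 in fasted WT livers and 11.28, 11.08, 11.39 and 11.59 in fed WT livers. PparaKO and fasted WT livers overlapped far below fed WT livers, with a fasting difference of -3.20 (SE 0.14, adjusted p = 3.15e-06), a Ppara-loss difference of 0.15 (SE 0.24, adjusted p = 0.686) with a 95% interval of -0.38 to 0.67, and a bridged difference of -3.06 (SE 0.29). Selenbp2, a selenium-binding protein, had -1.45 in PparaKO against fed WT and -3.11 in fasted WT against fed WT, and Cyp7b1, an oxysterol hydroxylase, had -0.15 in PparaKO against fed WT and -1.33 in fasted WT against fed WT. Egfr, the epidermal growth factor receptor, and Serpina12, a secreted serpin, were reduced with bridged differences of -0.38 and -0.67. Of 15 tested female-biased genes, fasting raised 12, and Ppara loss lowered 7 of these. The list holds Cyp4a10, Cyp4a14, Abcd2 and Acot3, which are also genes of fatty acid oxidation. Fmo2, a flavin monooxygenase, kept its rise, with 1.56 in PparaKO against fed WT and 1.64 in fasted WT against fed WT. Among genes of drug metabolism, fasting raised 12 of 24, of which Ppara loss lowered 5. Cyp2a5, a coumarin hydroxylase, had 1.51 in PparaKO against fed WT and 1.51 in fasted WT against fed WT.

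A further 50 genes had no fasting call in WT livers and lay more than 2-fold from fed WT livers without Ppara, 28 higher and 22 lower. These genes, termed without a fasting change, also had a fasting difference under 0.5 in size and a called Ppara-loss difference over 2-fold. A missing call does not exclude a fasting change where the SE is wide. The fasting differences of Igfbp1, Asns, Cyp7a1 and Scd1 were 0.32 (SE 0.48), 0.13 (SE 0.47), 0.33 (SE 0.47) and -0.37 (SE 0.41). That of Slc13a5 was -0.04 (SE 0.19). Igfbp1, an insulin-repressed binding protein of insulin-like growth factors, had log2 levels of 11.29, 11.47, 11.94 and 11.94 in PparaKO livers, 9.98, 9.51, 9.84 and 8.61 in fasted WT livers and 10.29, 8.61, 9.83 and 7.94 in fed WT livers. PparaKO livers lay above all WT libraries, with a Ppara-loss difference of 2.17 (SE 0.25, adjusted p = 0.000111) and a bridged difference of 2.49 (SE 0.57). Slc13a5, a citrate transporter, had log2 levels of 6.97, 5.77, 6.24 and 6.01 in PparaKO livers, 4.34, 4.60, 5.15 and 4.40 in fasted WT livers and 4.34, 5.12, 4.53 and 4.68 in fed WT livers. All PparaKO libraries again lay above all WT libraries, and the bridged difference was 1.58 (SE 0.31). Asns, asparagine synthetase, and Tat, tyrosine aminotransferase, had bridged differences of 1.55 and 1.41. Cyp7a1, the enzyme that starts bile acid synthesis from cholesterol, had log2 levels of 10.23, 10.04, 9.76 and 10.30 in PparaKO livers, 11.84, 11.51, 12.07 and 12.61 in fasted WT livers and 10.66, 10.84, 13.02 and 12.18 in fed WT livers. PparaKO livers lay lowest without overlap, with a Ppara-loss difference of -1.93 (SE 0.20, adjusted p = 5.15e-05), while fed WT livers spread widely. Inmt, a methyltransferase, Kyat3, a kynurenine aminotransferase, and Mme, neprilysin, had bridged differences of -2.56, -2.39 and -2.14. Scd1, the stearoyl-CoA desaturase, had -2.09 in PparaKO against fed WT and -0.37 in fasted WT against fed WT.

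Lcn2, Saa1 and Saa2, which rise in the acute phase response, were higher in all PparaKO livers than in any WT liver, with large spread. Lcn2, lipocalin 2, had log2 levels of 12.87, 9.80, 10.43 and 10.45 in PparaKO livers, 6.17, 7.05, 6.74 and 6.82 in fasted WT livers and 6.72, 7.61, 6.21 and 7.05 in fed WT livers, and its Ppara-loss difference was 4.19 (SE 0.51, adjusted p = 0.000172). Saa2, serum amyloid A2, had log2 levels of 15.41, 12.84, 10.89 and 13.13 in PparaKO livers, 7.10, 7.66, 7.41 and 7.02 in fasted WT livers and 8.73, 9.44, 7.51 and 8.36 in fed WT livers. Its fall with fasting of 1.21 (SE 0.33, adjusted p = 0.0255) was replaced by a bridged difference of 4.56 (SE 1.01). PparaKO replicate 1 was highest for both genes, and without it the bridged differences were 3.33 for Lcn2 and 3.78 for Saa2. Saa1, which shares sequence with Saa2, had 3.79 in PparaKO against fed WT and -1.13 in fasted WT against fed WT. Saa3, of the same family, had a bridged difference of 2.24, and its PparaKO and fed WT libraries overlapped. Hp and Hpx, plasma proteins that bind haemoglobin and haem, had bridged differences of 1.40 and 1.26. Beside these genes, Ppara loss raised 3 of 14 Kupffer cell and macrophage markers, including Marco by 0.77 and Cd163 by 0.40. Their summed log2 level was 12.98 to 13.46 in PparaKO livers and 12.74 to 13.09 in fasted WT livers of the same table, and 12.90 to 13.23 in fed WT livers of the fasting table. The median bridged difference of these markers was 0.05. The summed log2 level of 9 neutrophil markers, of which 2 were tested, was 6.83 to 7.15 in PparaKO livers and 6.59 to 6.79 in fasted WT livers of that table. The part of these cells in the acute phase levels was not tested. Of 7 lost falls, none stayed in its class under all alternatives. The fasting call of Saa2 was lost without fed WT replicate 1 or 4 or without fasted WT replicate 1 or 4 (adjusted p up to 0.0621). Without fed WT replicate 2 its fasting difference was -0.90, which passed the test and is under 2-fold, and the class held 3 genes without fed WT replicate 2.

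Erythroid genes rose with fasting. Fasting raised 9 of 10 tested erythroid markers and lowered Alas2, the haem synthesis enzyme of red cells, and none had a call in Ppara loss. Hbb-bs, an adult β-globin whose values are nearly those of Hbb-b1, had log2 levels of 11.59, 12.33, 10.64 and 11.39 in PparaKO livers, 11.93, 11.69, 12.11 and 11.88 in fasted WT livers and 10.57, 10.69, 10.00 and 10.84 in fed WT livers. PparaKO replicate 3 lay within the range of fed WT livers, and the bridged difference was 0.96 (SE 0.39). The summed log2 level of 12 erythroid markers was 12.8 to 14.2 in PparaKO livers and 13.668 to 14.005 in fasted WT livers of the same table. In the fasting table it was 13.56 to 13.90 in fasted WT livers and 12.42 to 12.97 in fed WT livers. The persisted rises include the globin genes Hbb-bs, Hbb-b1, Hba-a1 and Hba-a2, which mark blood cells, and the part of blood in that class was not tested. Fasting lowered 5 of 15 stellate cell and fibroblast markers, among them Col3a1, which persisted with -1.40 in PparaKO against fed WT and -1.28 in fasted WT against fed WT. Markers of lymphocytes and of adipose tissue with muscle were too low to be tested, and Ckm, Lep and Myh4 were listed at 0 in every library. No endothelial or cholangiocyte marker rose with fasting.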

How the data were processed

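RNA-seq of bulk liver was analysed for 12 of the 24 samples, 4 each of fasted PparaKO, fasted WT and fed WT. The authors made stranded, ribosome-depleted libraries (KAPA RiboErase), used STAR for alignment to mm10, HOMER for exon counts and DESeq2 for normalisation, and deposited 1 table of log2 values per pair of groups. The name of the log2 transformation is not given in the sources used here. Each table was scaled by itself, so that tests ran within a table. The tables also hold the authors' fold changes and p-values, which were not used, and 2 of the 4 tables were not used.

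Genes with a mean log2 level of at least 4 in a table were tested with limma 3.58.1 (R 4.3.3), the prior variance being trended on mean level, with Benjamini-Hochberg adjustment, and called at an adjusted p under 0.05. Figures were drawn with matplotlib 3.10.9 (Python 3.11.15). The fasting and Ppara-loss differences were added to give the bridged difference, whose SE combined the spread of fed WT and PparaKO libraries and of the gap between tables of the shared libraries. The procedure was run on simulated data in which planted fasting changes were either kept or lost in full. Grown and reduced changes, and changes near the limits of the classes, were not simulated. Named genes were Ppara, Ppard, Pparg and Bcl6, up to 8 genes per class and direction whose fasted and fed WT libraries did not overlap, ranked by the bridged difference (grew, persisted) or the Ppara-loss difference (reduced, lost), up to 6 per direction without a fasting change, and up to 4 members per list. Genes outside this rule are listed in the report, and some genes that the rule names are not reported here. The members, gene lists and classes were chosen with earlier results of these data known.

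Replicate numbers were checked for pairing. Deviations of same-numbered libraries correlated in the fasting table (r = 0.26, 0.13, 0.21 and 0.15) and not in the PparaKO table (r = -0.04, -0.03, 0.10 and -0.05). The alternatives were other filters, scalings, thresholds and prior spreads, a replicate block, no bridge, and leaving out each library in turn. Positions came from GENCODE vM21 and promoter windows from RefSeq (GRCm38.p6).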

Additional observations from a re-analysis of the deposited data

Results flagged for a closer look

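Of 72 groups of 4 libraries examined for 24 genes, 4 held a library whose gap to its nearest neighbour, as a share of the range of the group, passed the 95% critical value of Dixon. Chance gives such a gap in about 1 in 20 groups. The log2 level of Acadm was 12.64 in fasted WT replicate 4, above its other fasted WT replicates. That of Fkbp5 was 9.56 in fed WT replicate 2, above its other fed WT replicates. That of Hsd3b5 was 9.09 in PparaKO replicate 1, above its other PparaKO replicates. That of Hmgcs1 was 11.04 in PparaKO replicate 4, below its other PparaKO replicates.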

How the results depend on the processing

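Of the 134 genes in classes, 60 kept their class under all 23 alternatives, and between 106 and 125 kept it when 1 library was left out. No lost gene became persisted and no grown gene became opposed under any of them. Equal totals gave 811 rises and 3336 falls with fasting at the adjusted p alone, and 9 reduced rises. A fold over 1.5 gave 243 rises and 195 falls with fasting, 241 rises and 340 falls with Ppara loss, and for rises and falls 33 and 38 grown, 97 and 93 persisted, 40 and 23 reduced, 72 and 26 lost, 89 and 100 without a fasting change, with 7 unresolved. Without the bridge 0 genes were unresolved, with persistence from 75% of the fasting difference 14 were, and with loss below 10% there were 3 lost falls. Of 230 bridged differences, 59 moved by more than the replicate spread without the bridge, 5 under equal totals and 8 under quantile normalisation. Among those over 2-fold 0 changed sign, and smaller ones were not checked for sign. That of Slc13a5 was 2.62 without the bridge, against 1.58 with it. The Ppara-loss difference of Pck1 was -0.030 under quantile normalisation. Leaving out 1 library gave 5 to 10 grown falls, 7 to 18 reduced falls (18 without fed WT replicate 1), 3 to 7 lost falls and 0 to 3 unresolved genes. The cause was not tested, beyond the fewer samples or other thresholds of each alternative. With the replicate block, fasting raised 75 and lowered 68 genes more than 2-fold, and 124 of the 134 genes kept their class. The paired fit left Pck1 (adjusted p = 0.064), Mt2 (0.0567), Fdps (0.0715), Bnip3, Dpy19l3, Keg1, Dhcr7 and Serpina7 without a Ppara-loss call, and gave one to Ctcflos and Abcb11. No count moved by over 1.5 times under the block. Depth is unknown, so the precision of low genes rests on the spread of 4 libraries per group.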
